A study of Homo sapiens with 16 samples.

Results

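The 26S proteasome genes described here are 35 symbols: the 14 constitutive genes of the core particle, 9 genes of the base and 8 of the lid of the regulatory particle, 2 chaperones that assemble the base (PSMD9 and PSMD10) and 2 alternative activators (PSME3 and PSME4). They were matched by symbol to array probe sets that the platform annotation assigns to a single gene, and the probe set of highest mean signal stood for each gene. This gave values for 31 of the 35, out of 19775 genes named on the array. All 31 were among the 12305 genes tested. PSMA6, which lies only on probe sets shared with another gene, and PSMC5, PSMD7 and PSMD13 were not analysed here. The tested members were 13 of 14 core genes, 8 of 9 base genes, 6 of 8 lid genes, both chaperones and both activators.

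RNA was measured on Affymetrix arrays in 8 established human lines of B-cell cancer, lines of mantle cell lymphoma among them. Cells received AFN700, which inhibits the kinase IKKbeta, at 5 uM, or the solvent DMSO alone at 0.025%, for 20 hours, and each line gave 1 array per treatment (16 in all). The labels describe REC-1 and SP49 as sensitive, and GRANTA-519, HBL-2, JVM-2, JVM-13, Maver-1 and Z-138 as insensitive, to "stn" and to ibrutinib, a BTK inhibitor. The medium was DMEM for GRANTA-519 and RPMI for the rest. One treated array, that of JVM-13, has AFN700 in its title but AFN701 in 2 other fields, and was grouped by its title. The line is the replicate, a single line has no error of its own, and no label says that the arrays came from more than 1 culture of a line, so p-values measure the spread between these lines and arrays.

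The 26S proteasome degrades proteins tagged with ubiquitin. Its barrel-shaped core holds the proteolytic sites inside inner rings of beta subunits flanked by outer rings of alpha subunits, the base unfolds substrates with a ring of ATPases, and the lid removes their ubiquitin. In the NF-kB pathway, IKKbeta phosphorylates the inhibitor IkBalpha, which is then ubiquitinated and destroyed by the proteasome. Proteasome inhibitors that bind the catalytic subunit PSMB5 are used against mantle cell lymphoma.

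None of the 31 genes passed the threshold, an adjusted p under 0.05 in limma over all genes tested, in the 8 lines together, and apart from PSMD11, PSMC3, PSMD12, PSMD3 and PSMD10 their mean differences of AFN700 minus DMSO, in log2(intensity + 3.3), lay between -0.13 and 0.13. One lid gene, PSMD11, was lower with AFN700 in 7 of 8 lines and higher in JVM-13, and it was called when JVM-13 was left out. That call was made only in fits that pair the arrays of a line, and it rests on 1 of 2 probe sets. The other set, 208776_at, averaged -0.03 without JVM-13 (adjusted p = 0.95 in limma). PSMD12, another lid gene, was lower in the 7 lines other than JVM-13 by smaller amounts and was not called. Its values were near 0 in GRANTA-519 (-0.02) and Maver-1 (-0.00). The lowest median over members was in HBL-2, at -0.46 with 25 of 31 lower, where the RNA quality measure of actin 3' over 5' signal, described below, was 16.7 with AFN700 and 1.9 with DMSO. In GRANTA-519 27 members were lower, at a median of -0.08.

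The promoters of PSMD11, of the lid genes PSMD12 and PSMD14 and of the chaperone PSMD10 are printed because these genes include the lid gene with the lowest mean difference, another that was lower in the same lines, one whose difference was small, and the chaperone with the largest positive mean difference. Each window runs from 250 bases before to 50 after the gene's start in the RefSeq table (GRCh38.p14), 5′ to 3′ on the gene's strand. The capitals mark the ETS core, which is TTCCGG or its reverse complement CCGGAA. The windows are chr17:32444260-32444559 (plus strand, PSMD11), chr17:67366528-67366827 (minus strand, PSMD12), chr2:161308175-161308474 (plus strand, PSMD14) and chrX:108091493-108091792 (minus strand, PSMD10).
PSMD11: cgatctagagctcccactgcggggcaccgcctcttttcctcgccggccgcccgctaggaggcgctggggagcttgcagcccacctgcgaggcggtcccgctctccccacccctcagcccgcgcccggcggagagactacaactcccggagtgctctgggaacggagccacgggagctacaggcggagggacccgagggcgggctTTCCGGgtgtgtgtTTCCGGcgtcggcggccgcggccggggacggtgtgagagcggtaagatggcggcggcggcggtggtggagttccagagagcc
PSMD12: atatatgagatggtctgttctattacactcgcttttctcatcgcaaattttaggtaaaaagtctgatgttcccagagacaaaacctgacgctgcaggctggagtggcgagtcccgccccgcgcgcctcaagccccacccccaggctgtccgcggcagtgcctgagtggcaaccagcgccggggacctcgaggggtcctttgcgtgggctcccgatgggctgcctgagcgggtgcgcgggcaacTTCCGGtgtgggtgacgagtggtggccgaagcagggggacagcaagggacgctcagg
PSMD14: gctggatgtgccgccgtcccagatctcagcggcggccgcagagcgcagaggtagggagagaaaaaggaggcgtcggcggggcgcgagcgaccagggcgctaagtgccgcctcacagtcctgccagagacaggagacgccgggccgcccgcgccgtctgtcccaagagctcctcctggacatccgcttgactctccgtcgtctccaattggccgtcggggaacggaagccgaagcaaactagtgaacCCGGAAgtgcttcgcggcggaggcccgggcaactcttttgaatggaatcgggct
PSMD10: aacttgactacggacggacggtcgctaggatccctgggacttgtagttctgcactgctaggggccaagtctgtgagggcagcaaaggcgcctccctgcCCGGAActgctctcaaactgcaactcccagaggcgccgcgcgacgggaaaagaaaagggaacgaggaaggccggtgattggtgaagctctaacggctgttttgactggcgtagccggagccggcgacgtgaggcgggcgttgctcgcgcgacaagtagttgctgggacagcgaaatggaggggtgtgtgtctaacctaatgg

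The RefSeq table held 36 windows for 30 of the 35 listed symbols, 26 of them among the 31 measured, and the counts are over all 36. Matches are given over both strands, beside the share of all 35116 windows in the table, and a match is a description of the letters only. The ETS core, TTCCGG, was present in 19 of 36 member windows (52.8%), against 17.2% of all windows. PSMD11 held 2 matches, and PSMD12, PSMD14 and PSMD10 held 1 each. The CCAAT box, CCAAT, was in 17 member windows (47.2%), against 34.6%, and the GC box, GGGCGG, in 24 (66.7%), against 45%. The antioxidant response element core, TGANNNNGC, which is bound by NFE2L1 and NFE2L2 with small MAF proteins, was in 21 (58.3%), against 41.8%. The NF-kB consensus was in 1 member window (2.78%, PSMA4), against 5.91% of all windows. No test was made of these shares.

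Facts of the arrays bear on every value below. JVM-13 had a DMSO array unlike the rest. Its median log2 intensity over the genes tested was 7.25, against 7.82 to 8.02 on the other 15 arrays, and its correlation with its AFN700 partner over genes was 0.924, against 0.964 to 0.990 in the other 7 lines. Over the same genes, the AFN700 minus DMSO differences of JVM-13 correlated with the mean differences of the other 7 lines at r = -0.15, while each of the other lines, set against the mean of the rest, gave -0.00 to 0.33. If the JVM-13 arrays carried each other's labels, the sign of every JVM-13 difference given here would turn, which was not tested. The actin control probe sets give a 3'/5' signal ratio, which rises when RNA is degraded or incompletely copied. It was 16.7 on the AFN700 array of HBL-2 and 1.9 on its DMSO array. The pair in Maver-1 was 18.8 and 10.3, and in the other lines the ratio was 2.09 to 6.39 on AFN700 arrays and 2.01 to 5.06 on DMSO arrays. Among those it was higher with AFN700 in SP49 (6.39 and 2.73), Z-138 (5.43 and 3.5) and JVM-13 (3.43 and 2.01). It was lower with AFN700 in REC-1, GRANTA-519 and JVM-2. The same ratio for the GAPDH controls moved in the same direction in each line. B-cell identity was checked with CD79A, CD79B, MS4A1, PAX5, CD22, BLK and CD74: their summed intensity was 10059.9 to 16084.3 on AFN700 arrays and 9254.6 to 14569.6 on DMSO arrays. Summed T-cell markers reached 445.9 and 376.4, myeloid markers 381.0 and 272.1, fibroblast markers 327.8 and 627.1, and epithelial markers 366.0 and 342.0, on AFN700 and DMSO arrays. These are bulk arrays, in which a smaller number of cells of a type and less RNA per cell cannot be told apart.

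The first question was how the subunits moved with AFN700 over all 8 lines. With limma, none of the 31 genes passed an adjusted p of 0.05, and none of the 12305 genes tested did either (0%). At an unadjusted p under 0.05, 2 members (6.45%; PSMD11 and PSMD10) and 1006 genes (8.18%) passed, so the members' share was not above the background. The mean log2 difference of AFN700 minus DMSO was negative for 23 of the 31 members, with a median of -0.06, while 37.1% of all genes tested were negative, with a median of 0.06. By role the medians were -0.06 in the core (9 of 13 negative), -0.06 in the base (7 of 8) and -0.17 in the lid (5 of 6). Without JVM-13, 28 of 31 members were negative (median -0.08) and 43.3% of all genes were (median 0.03). Without HBL-2, 20 of 31 members were negative (median -0.04), with medians of -0.03 in the core, -0.04 in the base and -0.07 in the lid, and 38.8% of all genes were (median 0.05).

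**Figure D1:**
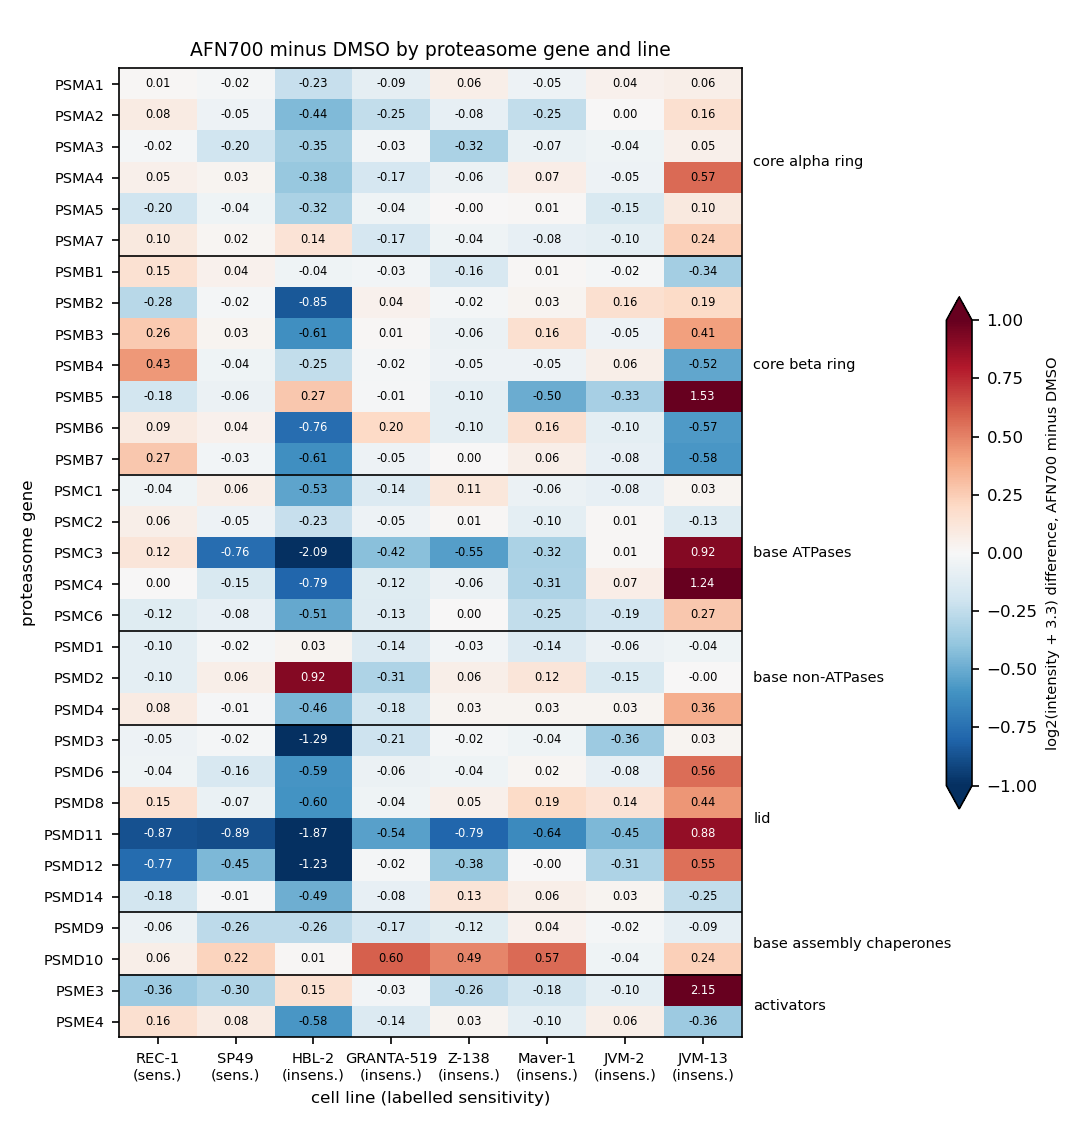
Log2(intensity + 3.3) difference of AFN700 minus DMSO for each of 31 proteasome genes (rows, grouped by role) in each of 8 lines (columns, with the labelled sensitivity). The number in each cell is the value and the colour scale ends at 1 on either side. PSMD11 is the lowest row in 6 lines, at -0.45 to -0.89, most of the HBL-2 column is negative, and JVM-13 holds the largest positive values (2.15 for PSME3).

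In the core alpha ring, whose members gate entry to the chamber, 6 genes were tested and mean differences lay between -0.12 and 0.01. PSMA1, PSMA2, PSMA4, PSMA5 and PSMA7 averaged -0.03, -0.10, 0.01, -0.08 and 0.01, with adjusted p of 0.707 or more in limma. PSMA3 was the lowest, at -0.12 ± 0.07 (SE), and was lower in 7 of 8 lines. Its intensity was 2048.3 to 3213.9 with AFN700 (median 2307) and 2319.1 to 3106.7 with DMSO (median 2602), so the groups overlapped, and limma's adjusted p was 0.645. Its mean turned positive, at 0.53, when the median of all its probe sets replaced the brightest set. The other sets, 232648_at and 237300_at, were dim, with mean intensities of 71 and 20.1, against 2537 for the brightest.

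The 7 core beta genes had mean differences between -0.13 and 0.08. The non-catalytic PSMB1, PSMB2, PSMB3 and PSMB4 averaged -0.05, -0.09, 0.02 and -0.06. PSMB5, which carries the chymotrypsin-like site, averaged 0.08 ± 0.18 (SE). Its intensity ranged from 720.4 to 1493.0 with AFN700 (median 1074) and from 507.4 to 1351.3 with DMSO (median 1137), and the positive mean came from JVM-13, where AFN700 and DMSO gave 1472.1 and 507.4. Without JVM-13 the mean was -0.13 (adjusted p = 0.519 in limma), and it was also negative without JVM-13 and HBL-2 (-0.20) and after centring the arrays (-0.02). PSMB6, which carries the caspase-like site, averaged -0.13 ± 0.11 (adjusted p = 0.757 in limma; the mean was 0.05 without JVM-13 and HBL-2), with intensities of 827.9 to 1768.7 with AFN700 (median 1660) and 947.6 to 2511.2 with DMSO (median 1648). PSMB7, which carries the trypsin-like site, averaged -0.13 ± 0.10 (adjusted p = 0.723; the mean was 0.03 without JVM-13 and HBL-2), with 2233.2 to 2716.7 with AFN700 (median 2522) and 2129.2 to 4054.2 with DMSO (median 2501). All 3 catalytic genes overlapped between the treatments.

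In the base, 5 ATPases and 3 other subunits were tested. The ATPases PSMC1, PSMC2, PSMC4 and PSMC6 averaged -0.08, -0.06, -0.02 and -0.13, and the ubiquitin receptor PSMD4 averaged -0.01 and the scaffold PSMD1 -0.06. PSMD1's dimmer probe set, 201198_s_at, averaged -0.35 ± 0.12 (SE; adjusted p = 0.552 in limma). It was lower in 7 lines and higher in GRANTA-519 (0.10). PSMC3 had the lowest mean of the base, -0.39 ± 0.24 (SE; adjusted p = 0.681 in limma), and its intensity was 420.5 to 760.1 with AFN700 (median 595) and 333.3 to 1813.3 with DMSO (median 735). The single line HBL-2 gave 424.4 and 1813.3, a difference of -2.09, the lowest of any member in any line. Without HBL-2 the mean was -0.14, and without JVM-13 it was -0.57 (adjusted p = 0.222). PSMC3 was lower in 5 lines and higher in 3. PSMD2, a scaffold subunit of the base, went the other way in HBL-2, by 0.92, with 1750.3 with AFN700 and 922.5 with DMSO.

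The lid held the lowest mean difference of the members. PSMD11, a structural lid subunit (Rpn6 in yeast), had intensities with AFN700 and then DMSO of 740.6 and 1353.4 in REC-1, 785.5 and 1457.0 in SP49, 621.9 and 902.9 in GRANTA-519 and 298.7 and 1098.4 in HBL-2. JVM-2 gave 968.0 with AFN700 and 1321.8 with DMSO, JVM-13 gave 1507.5 and 819.4, Maver-1 gave 864.1 and 1345.5, and Z-138 gave 428.5 and 742.9. The AFN700 array was thus the dimmer in 7 of 8 lines and the brighter in JVM-13, and the ranges overlapped across lines. The mean was 777 ± 369 with AFN700 and 1130 ± 277 with DMSO (SD, n = 8 each).

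The log2 differences of PSMD11 were -0.87 in REC-1, -0.89 in SP49, -0.54 in GRANTA-519, -1.87 in HBL-2, -0.45 in JVM-2, 0.88 in JVM-13, -0.64 in Maver-1 and -0.79 in Z-138. PSMD11 was the lowest of the 31 members in 6 lines and the second lowest in HBL-2. Against the median of the other 30 measured members, its difference was -1.42 to -0.41 in 7 lines and 0.75 in JVM-13. JVM-13 gave 0.73 after quantile normalization and 0.21 after centring each array on its median, so its sign held under both while its size did not.

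Over 8 lines, PSMD11 averaged -0.64 ± 0.21 (SE; 95% interval -1.11 to -0.18), with an unadjusted p of 0.0105 and an adjusted p of 0.514 in limma, which ranked it 250 of 12305 by p. Without JVM-13 it averaged -0.86 ± 0.14 (interval -1.16 to -0.56; adjusted p = 0.0483), and it was 1 of 10 genes called (0.0822%; 5 of them lower, 0.0411%). Without HBL-2 and with JVM-13 it averaged -0.47 ± 0.19 (adjusted p = 0.707). With JVM-13 and HBL-2 both left out, the 2 lines with the lowest correlation between their arrays, it averaged -0.69 ± 0.08 (interval -0.87 to -0.52; adjusted p = 0.00766) and had the smallest p of 12032 genes, of which 38 were called (0.316%; 18 of them lower, 0.15%). These 2 lines also hold the lowest and the highest PSMD11 difference, -1.87 in HBL-2 and 0.88 in JVM-13. Leaving them out thus narrows the spread of PSMD11 itself, and the SE and rank of that fit are not independent support. The members, PSMD11 among them, were chosen with earlier results of these data known. PSMD11 was below 0 under all 21 alternatives tried, at -0.86 to -0.47, and passed the threshold under 2 of them, the blocked fits without JVM-13. Without the line as a block, its adjusted p in limma was 1 over 8 lines and also in both fits that left JVM-13 out. The fit without the block ignores the pairing of a line's 2 arrays, so the spread between lines enters its error. The call depends on leaving out the JVM-13 pair and on the block.

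**Figure D2:**
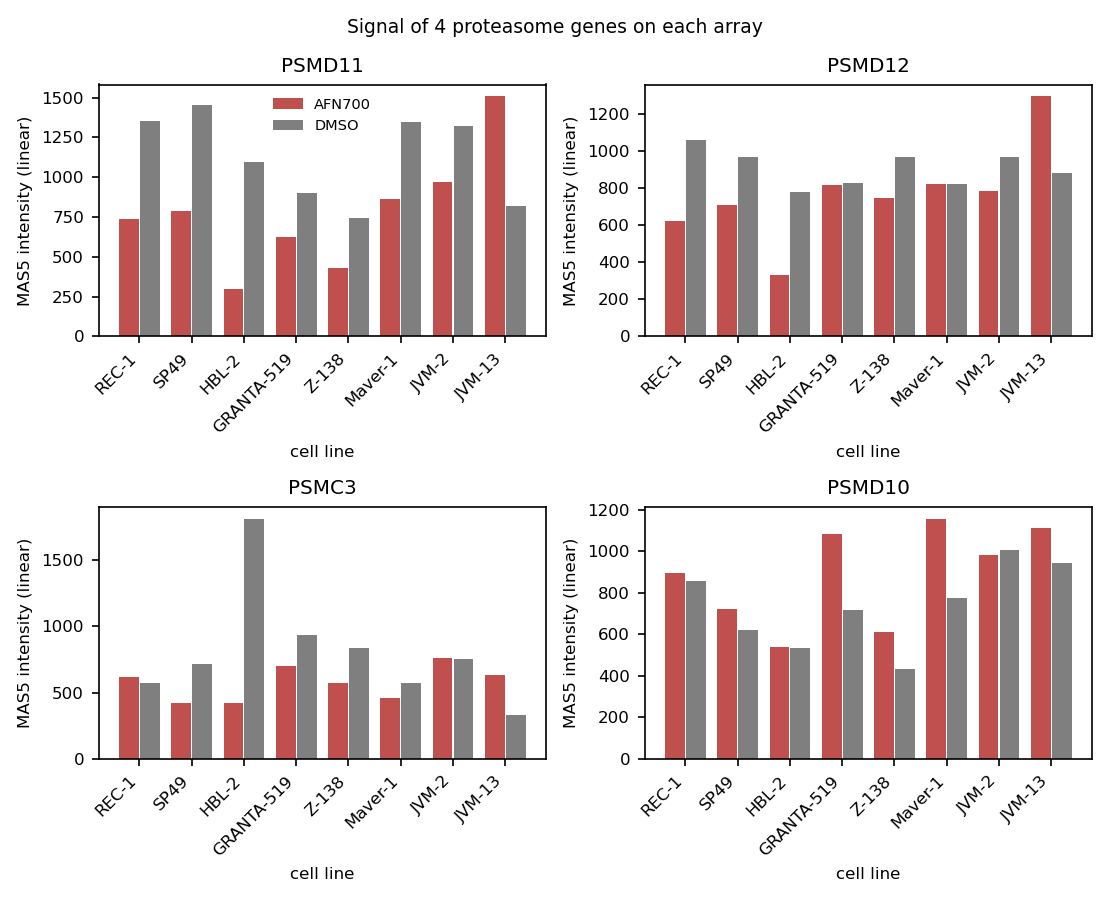
MAS5 intensity (linear scale, from 0) of PSMD11, PSMD12, PSMC3 and PSMD10 on the AFN700 array (red, left bar) and the DMSO array (grey, right bar) of each line. PSMD11 is dimmer with AFN700 in 7 lines and brighter in JVM-13 (1507.5 with AFN700, 819.4 with DMSO), and PSMC3 stands out in HBL-2 (424.4 and 1813.3).

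PSMD12, a lid subunit that lies next to PSMD11 in the complex, had intensities of 331.7 to 1292.8 with AFN700 (median 763) and 780.8 to 1058.7 with DMSO (median 923), which overlapped. Its differences were -0.77 in REC-1, -0.45 in SP49, -0.02 in GRANTA-519, -1.23 in HBL-2, -0.31 in JVM-2, 0.55 in JVM-13, -0.00 in Maver-1 and -0.38 in Z-138. The values in GRANTA-519 and Maver-1 were near 0. It averaged -0.33 ± 0.16 (adjusted p = 0.63), and -0.45 ± 0.13 without JVM-13 (adjusted p = 0.168) in limma. No member had one sign in all 8 lines. Without JVM-13, 4 members had one sign in the other 7 lines: PSMD11, PSMD12, PSMD3 and PSMA3. All 4 were higher in JVM-13. Some of these signs rest on values near 0, among them -0.02 for PSMD3 in SP49 and Z-138 and for PSMA3 in REC-1. The share of all genes with one sign in those 7 lines was not counted.

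PSMD3, also a lid subunit, averaged -0.24 ± 0.16 (adjusted p = 0.69), with -1.29 in HBL-2. Its mean without JVM-13 and HBL-2 was -0.12. The lid genes PSMD6, PSMD8 and PSMD14, the last the ubiquitin-removing enzyme of the lid, averaged -0.05 ± 0.10, 0.03 ± 0.10 and -0.10 ± 0.08.

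Of the chaperones, PSMD10 (gankyrin) had intensities of 537.0 to 1155.5 with AFN700 (median 936) and 433.4 to 1004.7 with DMSO (median 745), and was higher in 7 of 8 lines. Its differences ran between -0.04 (JVM-2) and 0.60 (GRANTA-519), and the ranges overlapped. It averaged 0.27 ± 0.11 (SE; adjusted p = 0.581 in limma), and 0.32 ± 0.10 without JVM-13 and HBL-2 (adjusted p = 0.138). Its dimmer probe set, 1554577_a_at, averaged 0.05 ± 0.20 (adjusted p = 0.96), with -1.04 in HBL-2 and -0.44 in JVM-13, and was lower in 3 lines. The median of both sets gave a mean of 0.16. PSMD9 averaged -0.12 ± 0.10 and was lower in 7 lines. Of the activators, PSME4 averaged -0.11 ± 0.09. PSME3, which forms the PA28gamma ring of the nucleus, averaged 0.13 ± 0.23 over 8 lines and -0.15 without JVM-13, where the difference was 2.15 (1535.8 with AFN700, 342.4 with DMSO).

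All probe sets of PSMD11 were examined, since the array carries 2. The brighter, 208777_s_at, is the one described above. The dimmer, 208776_at, did not follow it: its differences were 0.65 in REC-1, -0.10 in SP49, 0.45 in GRANTA-519, -0.77 in HBL-2, 0.23 in JVM-2, -3.57 in JVM-13, -0.42 in Maver-1 and -0.27 in Z-138. In JVM-13 it read 58.4 with AFN700 and 728.7 with DMSO, the opposite of the brighter set. In the limma fit over 23510 probe sets, of which none was called over 8 lines (0%; 1832, or 7.79%, at an unadjusted p under 0.05), 208776_at averaged -0.48 ± 0.37 (adjusted p = 0.741) and -0.03 ± 0.17 without JVM-13 (adjusted p = 0.95). The brighter set had an adjusted p of 0.552 over 8 lines, 0.0499 without JVM-13 (21 of 23064 called, 0.0911%; 8 of them lower, 0.0347%) and 0.00538 without JVM-13 and HBL-2 (194 of 22724 called, 0.854%; 104 of them lower, 0.458%). The 2 sets thus differ in sign in 4 lines, and the call of PSMD11 rests on 1 probe set.

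Among all 62 probe sets of members, 59 were tested. None was called over 8 lines, 1 when JVM-13 was left out, and 2 when HBL-2 was left out as well. The second is PSME3's 209853_s_at, chosen for mention after its values were seen. Its differences were -0.64 in REC-1, -0.69 in SP49, -0.65 in GRANTA-519, -1.28 in HBL-2, -0.31 in JVM-2, -0.47 in Maver-1 and -0.54 in Z-138. JVM-13 went the other way, by 3.52, with 861.4 with AFN700 and 72.2 with DMSO. Without JVM-13 and HBL-2 it averaged -0.55 ± 0.10 (adjusted p = 0.026), while the brighter 209852_x_at, which stands for the gene, averaged -0.21 ± 0.07 (adjusted p = 0.16). The other sets of PSME3, 200987_x_at and 200988_s_at, were also lower in 7 of 8 lines. PSMD12's second set, 202353_s_at, averaged -0.13 ± 0.12 and was lower in 5 lines, JVM-13 (-0.32) among them. It was higher in GRANTA-519 (0.32), JVM-2 (0.12) and Z-138 (0.07), where the brighter set was lower.

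**Figure D3:**
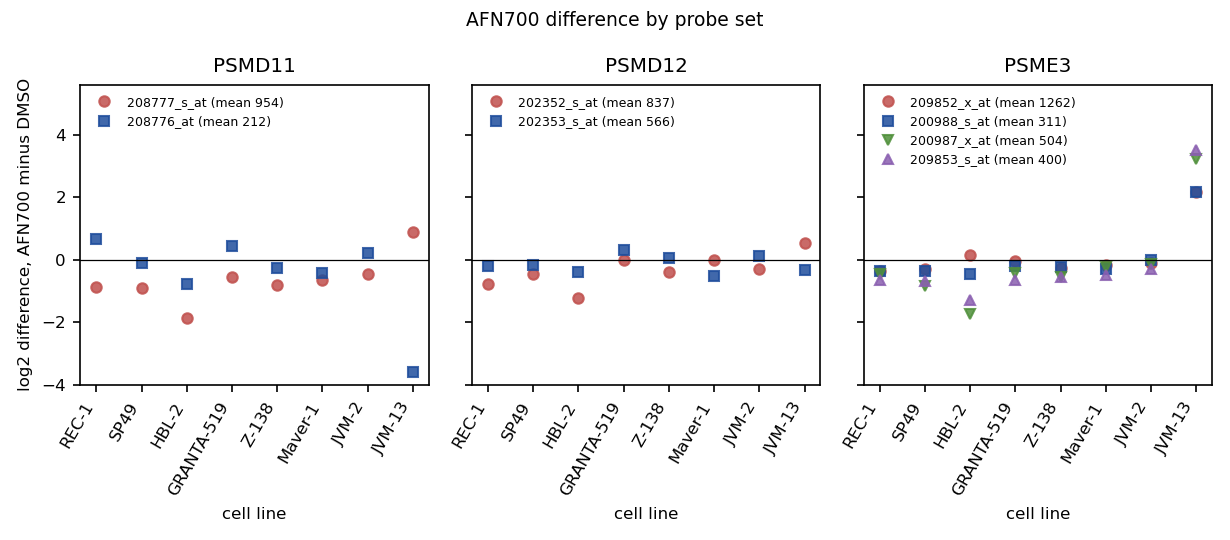
Log2 difference of AFN700 minus DMSO by line for each probe set of PSMD11, PSMD12 and PSME3, with the mean intensity of each set in the key. The 2 PSMD11 sets part in JVM-13 (0.88 and -3.57), and all 4 PSME3 sets are highest in JVM-13 (2.15 to 3.52).

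Within lines, the members' interquartile range was 0.12 to 0.38 in the 7 lines other than JVM-13 and 0.56 in JVM-13, against 0.33 to 0.82 and 1.36 for all genes tested. The members' probe sets were bright, with a median log2 intensity of 10.63 to 11.20 by array, against 7.25 to 8.02 over all genes tested, and the part of brightness in the narrower range was not tested. In HBL-2 the median member was -0.46 (25 of 31 lower), against a median of 0.17 over all genes, of which 39.1% were lower. The medians there were -0.35 in the core, -0.48 in the base and -0.91 in the lid, and 4 members were at least 2-fold lower (PSMC3, PSMD3, PSMD11 and PSMD12), against 4.46% of all genes. The part in this of the higher actin 3'/5' ratio on the AFN700 array was not tested. In JVM-13 the median was 0.16, with 3 members at least 2-fold higher (PSMB5, PSMC4 and PSME3), against 25.7% of all genes, but it was -0.51 after centring and 0.24 after quantile normalization, so its direction depends on the scaling. GRANTA-519, at -0.08, also changed sign on centring (0.03). The remaining lines had medians between -0.05 and 0.00. Members below 0, with the share of all genes tested below 0 in parentheses, numbered 15 in REC-1 (45.1%), 22 in SP49 (44.3%), 27 in GRANTA-519 (55%), 20 in JVM-2 (48.5%), 10 in JVM-13 (38.7%), 17 in Maver-1 (49%) and 20 in Z-138 (45.1%). In the 6 lines other than HBL-2 and JVM-13 no member differed 2-fold in either direction, while the share over all genes was 3.55% in REC-1, 3.73% in SP49, 8.14% in GRANTA-519, 2.01% in JVM-2, 3.06% in Maver-1 and 2.74% in Z-138. In HBL-2 and JVM-13 those shares were 14.3% and 32.7%.

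**Figure D4:**
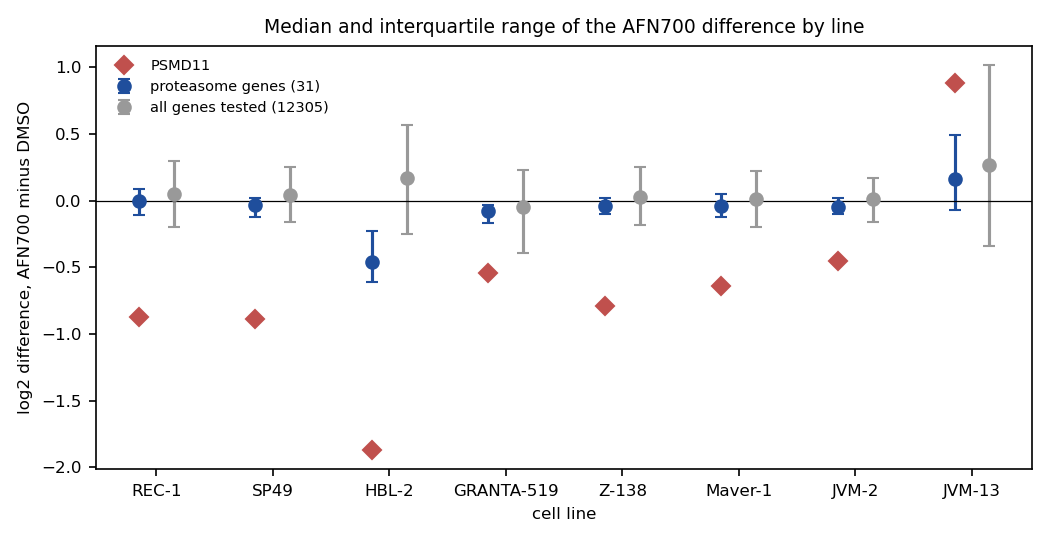
Median (point) and interquartile range (bar) of the log2 difference AFN700 minus DMSO in each line, for 31 proteasome genes (blue) and 12305 genes tested (grey), with PSMD11 as red diamonds. HBL-2 is the line with the lowest member median, -0.46, and PSMD11 lies below the members' interquartile range in all lines except JVM-13.

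The labels divide the lines by sensitivity, and the response was compared between them. No member passed for the sensitive minus insensitive difference in response (0 of 31; all genes 0 of 12305, 0%; at an unadjusted p under 0.05, 0 members and 182 genes, 1.48%, in limma). PSMD11 averaged -0.88 ± 0.44 (SE; 95% interval -1.85 to 0.10) in the 2 sensitive lines and -0.57 ± 0.26 in the 6 insensitive lines. The difference was -0.31 ± 0.51 (interval -1.43 to 0.81; adjusted p = 1 in limma). Without JVM-13 and HBL-2 the values were -0.88 ± 0.13 (adjusted p = 0.041 in limma; 5 of 12032 genes called, 0.0416%; 4 of them lower, 0.0332%) in the sensitive lines and -0.60 ± 0.09 (adjusted p = 0.0819) in the insensitive lines, where no gene was called (0%) and 5 members (16.1%) and 1497 genes (12.4%) had an unadjusted p under 0.05, against 3 members (9.68%) and 1333 genes (11.1%) in the sensitive lines. The sensitive lines were the same 2 in both fits, and so was their mean. Each SE draws on the spread over all lines fitted, so its fall from 0.44 to 0.13 came with the insensitive lines left out. The difference between sensitive and insensitive lines was -0.28 ± 0.16 (interval -0.62 to 0.07; adjusted p = 0.89). The responses to AFN700 were not shown to differ, and the interval includes values on both sides of 0.

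The DMSO level was also compared by the label. No member was called (0 of 31; all genes 1 of 12305, 0.00813%; at an unadjusted p under 0.05, 2 members, 6.45%, and 702 genes, 5.70%). The difference of sensitive minus insensitive was negative for 22 of 31 members, with a median of -0.13, while 45.1% of all genes were negative, with a median of 0.07. PSMB4, a non-catalytic beta subunit, read 2466.2 in REC-1 and 2762.1 in SP49, against 2689.6 to 4223.9 in the 6 insensitive lines, so the groups overlapped, and it differed by -0.45 ± 0.18 (adjusted p = 0.861 in limma). PSMC2, a base ATPase, differed by -0.47 ± 0.19 (adjusted p = 0.861); these were the 2 members under an unadjusted p of 0.05. The largest negative difference was PSMD3's, -0.51 ± 0.37, and PSMD14's was -0.47 ± 0.22. The largest positive ones were 0.48 ± 0.37 for PSMB5, 0.47 ± 0.29 for PSMD11 and 0.22 ± 0.23 for PSMD12. PSMD11's 2 sensitive lines, 1353.4 and 1457.0, lay narrowly above its 6 insensitive lines, 742.9 to 1345.5, without a call (adjusted p = 0.902 in limma). PSMD12's sensitive lines also lay above its insensitive lines, by as little as 969.5 against 968.0. PSMB7's sensitive lines, 2129.2 and 2278.1, lay below its insensitive lines, 2418.7 or more. The share of all genes that part in this way was not counted.

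The DMSO level of each member was also followed across lines. The SD of log2 level over the 8 lines had a median of 0.29 for members and 0.70 for all genes tested. The members' probe sets were also brighter than those of all genes tested, and the part of brightness in this contrast was not tested. The widest ranges were 2.43 for PSMC3 (8.39 in JVM-13 to 10.83 in HBL-2), 2.17 for PSME3 (8.43 in JVM-13 to 10.60 in GRANTA-519) and 1.61 for PSMD2 (9.85 in HBL-2 to 11.46 in JVM-13). Without JVM-13 the ranges of PSMC3 and PSME3 were 1.67 and 0.81. The narrowest were 0.34 for PSMA7, 0.39 for PSMC6 and 0.40 for PSMA1.

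**Figure D5:**
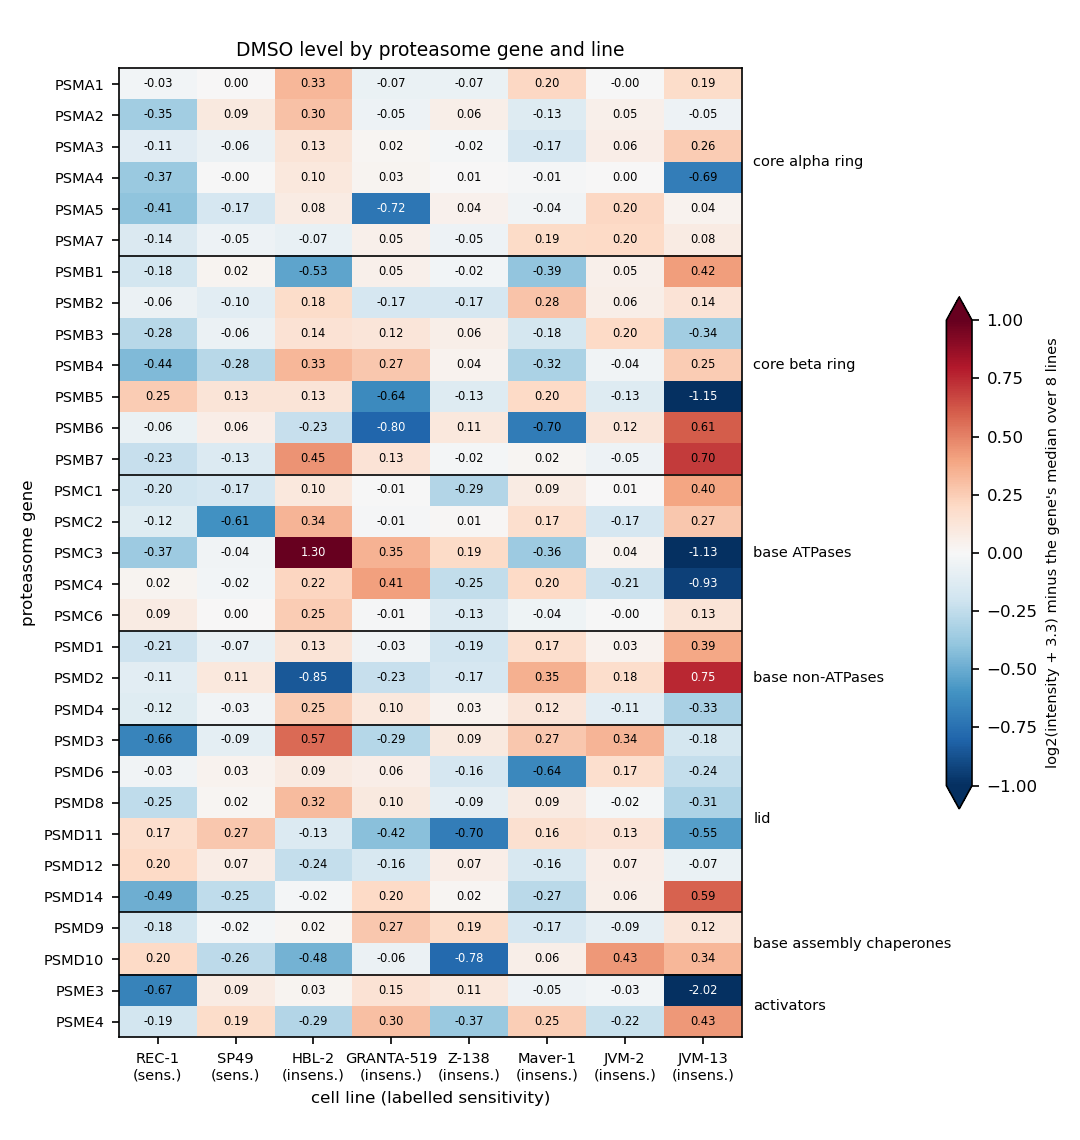
DMSO log2(intensity + 3.3) of each proteasome gene (rows) in each line (columns) minus the gene's own median over the 8 lines, with the value in each cell and a colour scale that ends at 1. Most cells lie near 0, and the widest rows are PSMC3 and PSME3, which are lowest in JVM-13.

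Other genes of the pathway were taken from 6 lists of 44 genes, 37 of them tested. In limma none was called over 8 lines, in the fit that left out JVM-13, or in the one that left out HBL-2 as well, against 0, 10 and 38 of all genes tested (0%, 0.0822% and 0.316%). At an unadjusted p under 0.05, 1, 8 and 8 of them passed (2.7%, 21.6% and 21.6%), against 8.18%, 15.1% and 17.7% of all genes tested. Over 8 lines 24 of 37 were negative, with a median of -0.06. In the transcription control list 6 of 8 were negative. NFYA, a subunit of the CCAAT-binding factor NF-Y, was lower in 8 of 8 lines, with 450.3 to 851.4 with AFN700 (median 618) and 526.1 to 980.1 with DMSO (median 740). It averaged -0.28 ± 0.10 (adjusted p = 0.552). MAFF, a small MAF protein, was dim (0.8 to 131.2 with AFN700, 6.1 to 131.9 with DMSO) and averaged -0.48 ± 0.27, and -0.90 ± 0.18 without JVM-13 and HBL-2 (adjusted p = 0.0564 in limma). Of the immunoproteasome and PA28 list, 3 of 4 were negative, among them PSMB8 at -0.13 ± 0.13 (-0.04 without JVM-13 and HBL-2) and PSME1 at -0.07 ± 0.10 (-0.00 without them). Of the assembly chaperones, 5 of 7 were positive. PSMD5 averaged 0.38 ± 0.18 (adjusted p = 0.607), with 1.71 in HBL-2, where it was dim (18.6 with AFN700, 3.4 with DMSO), and 0.15 without JVM-13 and HBL-2. PAAF1 averaged 0.39 ± 0.23, with 2.23 in JVM-13, and 0.05 without both lines. Of the docked proteins, 7 of 8 were negative, with USP14, a proteasome-bound deubiquitinase, at -0.19 ± 0.11, and the exception PSMF1, a proteasome inhibitor, at 0.22 ± 0.11. Among the receptors and shuttles 2 of 4 were negative. UBQLN4 averaged 0.17 ± 0.18 but was lower in 6 of 8 lines, with 1.20 in JVM-13 and a positive value in HBL-2, and its mean was -0.14 without those lines. UBQLN1 averaged -0.12 ± 0.13, with -1.01 in JVM-13, and -0.06 without both lines. Among the ubiquitin supply genes 4 of 6 were negative, with VCP, an unfolding ATPase, at -0.25 ± 0.14. UBA1, the main ubiquitin-activating enzyme, averaged 0.19 ± 0.15, with 1.30 in JVM-13, and -0.01 when both lines were left out.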

How the data were processed

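The authors deposited linear MAS5 probe set intensities in a series table. The MAS5 name is per the submitters' processing notes; its version is not given in the sources used here. The values show a global scaling: with 2% trimmed at both ends, every array averages 150. Per the labels' protocols, RNA was extracted with a column kit and amplified and biotin-labelled with a NuGEN system. Without detection calls, dim probe sets and background look alike here, and precision is limited by the number of arrays.

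Of 54675 probe sets, the platform table lists 42898, of which 41097 have 1 gene, 1801 several, and 11777 are not listed. Probe sets with several genes and 62 controls were left out. Values were analysed as log2(intensity + 3.3). The pseudocount is the 25th percentile of the table, and it shrinks differences of dim genes. Testing was limited to genes above the 60th percentile of an array on 2 or more arrays, with no added normalization.

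The test was limma 3.58.1 (R 4.3.3; lmFit, then eBayes with a trend), fitted over all genes tested with a fixed block for each line, since both arrays of a pair come from the same line by the labels. The DMSO comparison used the 8 DMSO arrays without a block. Adjusted p-values are Benjamini-Hochberg over all genes (or probe sets) tested, called at 0.05, and each SE is limma's moderated one.

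The members and gene lists were chosen with earlier results of these data known. Named genes are members called in any fit, the 3 largest mean differences in each direction, the 3 widest and 3 narrowest DMSO ranges, the 3 largest DMSO differences by sensitivity in each direction, members of one sign in all lines, the 3 catalytic subunits, PSMD11 with all probe sets, and the 2 pathway genes of smallest p per list. Alternatives were other pseudocounts, scalings, filters, probe set rules, a fit without the trend or without the block, a threshold of 0.1 and fits with lines left out. On simulated arrays with 200 of 12305 genes shifted in the 8-line comparison, limma called 12.5% at a log2 shift of 0.5, 71% at 1.0 and 98% at 2.0. The simulated noise was independent, with the same spread on every array for a given gene. The real differences spread more widely in HBL-2 and JVM-13, so these shares may not hold for the real arrays. Figures were drawn with matplotlib 3.10.9.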

Additional observations from a re-analysis of the deposited data

Results flagged for a closer look

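Of 63 sets of 8 values examined, 11 held a line whose gap to the nearest other line was large against the whole range by Dixon's test at 95%, and chance flags about 1 set in 20. HBL-2 and JVM-13 held all 11. In HBL-2 the differences of AFN700 minus DMSO were -0.85 for PSMB2, -0.61 for PSMB3, -0.53 for PSMC1, 0.92 for PSMD2 and -1.29 for PSMD3, and the median over members was -0.46, against -0.08 to 0.16 in the other lines. In JVM-13 they were 0.57 for PSMA4, 1.53 for PSMB5, 1.24 for PSMC4 and 2.15 for PSME3. The DMSO level of PSME3 in JVM-13 was 8.43 on the log2 scale, against 9.79 to 10.60 in the other lines. The 3'/5' actin ratio in HBL-2 (16.7 with AFN700, 1.9 with DMSO) and the low median of the JVM-13 DMSO array (7.25) stand beside these values, and their part in them was not tested.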

How the results depend on the processing

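No member was called over 8 lines, and the count was 1, PSMD11, when JVM-13 was left out, alone or together with HBL-2. Leaving out each line in turn gave 0 to 1 members called. The count of PSMD11 probe sets called behaved alike, 0 over 8 lines, 1 when JVM-13 was left out, alone or with HBL-2, and 0 to 1 over the lines left out in turn. Leaving out the replicate block gave 0 members and 0 PSMD11 probe sets called over 8 lines. In 2 alternatives chosen after seeing the data, the replicate block was left out together with JVM-13, or with JVM-13 and HBL-2, and the counts were again 0. The calls of PSMD11 were thus made only with the block. Fits without it ignore the pairing of a line's arrays and put the spread between lines into the error. The counts for the sensitivity difference in response, for the DMSO level by sensitivity and for the pathway lists were 0 under all alternatives tried. The mean over lines of each line's median member, a quantity other than the median of member means in the report, was -0.07, and lay between -0.16 and -0.01 under 16 alternatives. The value nearest 0 was that without HBL-2, where it was 0.00 in the core (-0.04 over 8 lines), -0.03 in the base (-0.08) and -0.00 in the lid (-0.12). Leaving out each line in turn gave -0.15 to 0.20 for PSME3 and -0.13 to 0.16 for PSMB5. Signs turned for PSME3, at -0.15 without JVM-13, -0.21 without JVM-13 and HBL-2 and -0.08 with the median of all probe sets, and for PSMB5, at -0.13, -0.20 and, on centred arrays, -0.02. They also turned for PSMB6 (0.05) and PSMB7 (0.03) without both lines. For PSMA3 the sign turned (0.53) with the median of all probe sets, which are dim apart from the brightest. The fits without both the block and those lines gave the same values. The cause of these changes was not tested. With 1 array per line and treatment, simulated shifts of 0.5 on the log2 scale were mostly below what the 8-line fit could call.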
